A study of Homo sapiens with 5 samples.

Results

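G-quadruplex (G4) regions on human chromosome 16 were examined in C4-2 cells. They were found by merging the BG4 peaks of 4 replicates wherever peaks overlapped by at least 1 bp and by keeping the merged regions that held a peak of at least 2 replicates, which are called recurrent regions here. Chromosome 16 held 359 of the 6835 recurrent regions of the genome. All positions are GRCh37 positions as deposited.

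C4-2 cells are a human prostate cancer line, established from LNCaP cells, that can grow without androgen. All samples came from this line, with no treatment named, cross-linked with formaldehyde and sheared by sonication, and there was no second condition. The files covered 4 samples immunoprecipitated with BG4, described in the methods as biological replicates, and the input sample was not analysed here. Each list held 4427 to 8036 peaks and no read counts, so the depth behind a peak was unknown, and no comparison with cells lacking G4s or with another antibody could be made.

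A G4 is a four-stranded structure that guanine-rich DNA can fold into, built from stacked planes of guanines. BG4 is a single-chain antibody that binds the folded form, and peaks of BG4 in chromatin are known to lie mostly in open, guanine-rich promoters. Chromosome 16 suits a comparison along its length because its parts differ strongly. The tip of the short arm, band 16p13.3, is rich in genes and in G and C. The middle of the short arm holds blocks of sequence that were copied during primate evolution and still nearly match each other, and the long arm, 16q, contains wide stretches with few genes as well as gene-dense ones.

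Fold enrichment, the strength of a peak, is the ratio of reads at its summit to the local background that the peak caller expected. Sequences of 2 sets of copied genes are shown first. MIR3180 lay in some of the strongest regions and the SLX1B cluster in weaker ones. They come from RefSeq on GRCh38.p14 and were linked to the peaks by gene symbol only, without converting positions. Runs of at least 3 G or 3 C are in capitals, because G runs are what a G4 is built from and a C run is a G run on the other strand. The first is the MIR3180-1 hairpin, a microRNA precursor at chr16:14911220-14911313 on the plus strand, and the second is the 250 bases before the start of SLX1B-SULT1A4, at chr16:29454841-29455090 on the plus strand.

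MIR3180-1 hairpin: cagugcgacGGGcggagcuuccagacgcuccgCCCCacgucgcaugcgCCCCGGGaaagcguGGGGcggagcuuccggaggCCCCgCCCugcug

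SLX1B-SULT1A4 upstream: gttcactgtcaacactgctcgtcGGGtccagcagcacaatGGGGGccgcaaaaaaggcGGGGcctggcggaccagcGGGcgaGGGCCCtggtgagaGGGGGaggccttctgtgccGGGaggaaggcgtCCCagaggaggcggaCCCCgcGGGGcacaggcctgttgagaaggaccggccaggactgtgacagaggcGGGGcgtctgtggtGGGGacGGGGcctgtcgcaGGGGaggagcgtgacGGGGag

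The mature microRNA made from the 3′ side of this hairpin is shown with its seed, bases 2 to 8, in capitals, because these bases choose a microRNA's targets and here include a run of G bases.

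hsa-miR-3180-3p: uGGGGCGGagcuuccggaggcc

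The hairpin held 3 G runs and 4 C runs in 94 bases, and at least 7 such runs were found in 8.0% of the 1562 human hairpins of the table. The MIR3180-3 hairpin was identical to it and the MIR3180-2 hairpin was contained in it. The SLX1B-SULT1A4 sequence held 13 G runs, and 13% of all 35116 promoters had as many G runs or C runs in the same 250 bases, where the median was 7 runs. Neither sequence held the strict G4 motif, which is 4 runs of at least 3 G with 1 to 7 bases between them on either strand. That motif was found in 3.07% of hairpins and in 23.5% of all promoters, and in 25.5% of the 1293 promoters of chromosome 16. A missing match says only that the letters were not in this window.

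On chromosome 16, 1335 peaks were deposited, with 414, 333, 358 and 230 in replicates 1 to 4. They merged into 572 regions, of which the 359 recurrent ones were 62.8%, beside 63.0% over the genome. Of the 359, all 4 replicates supported 141, exactly 3 supported 115 and 2 supported 103. The share in all 4 was 39.3%, beside 41.5% of the recurrent regions of the genome. In recurrent regions per Mb, chromosome 16 ranked 3 of 24 chromosomes at 3.98 per Mb, below chromosome 19 with 8.26 and chromosome 17 with 5.70 and next to chromosome 22 with 3.89. Lengths were counted to the last peak of each chromosome.

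The regions were short. Their median width was 511 bp, from 297 to 1365 bp, and in the regions of all 4 replicates the summits lay within a median of 93 bp of each other, which the rule partly fixes, since it joins overlapping peaks. Median width was 324, 420, 510 and 624 bp for merged regions of 1, 2, 3 and 4 replicates. Their highest fold enrichment had medians of 5.62, 7.34, 8.98 and 13.302 in the same order, so regions found more often also had a higher highest value, which is a maximum over more values. Replicates 1 to 4 had a peak in 89.4%, 80.5%, 83.3% and 57.4% of the recurrent regions. Replicate 4 thus missed the most regions and also had the shortest list. Over recurrent regions, with a missing peak counted as 0, Pearson's r of fold enrichment between pairs of replicates was 0.581 to 0.722, and over the 141 regions of all 4 replicates it was 0.742 to 0.815. These are descriptions across regions, which are not independent of each other.

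No peak of any replicate fell between 33966071 and 46391155, a stretch of 12.4 Mb that includes the centromere and was used to divide the arms. The short arm held 221 of the recurrent regions and the long arm 138. The short arm was divided into 16p13.3 (the first 5 Mb), a middle stretch from 5 to 14.5 Mb, the duplicated 16p block from 14.5 to 30.5 Mb, and a pericentromeric stretch of 3.47 Mb from there to the peak-free stretch. The name 16p13.3 stands for the first 5 Mb only, whether or not the band ends there. The name duplicated 16p stands for the whole interval, although only parts of it are copied sequence.

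Recurrent regions crowded at the tip of the short arm. The 16p13.3 block held 103 of them, or 28.7%, on 6.43% of the length. This was 20.6 per Mb, against 4.38 per Mb for the 70 regions of duplicated 16p and 3.15 per Mb for the 138 regions of 16q. The middle stretch was the sparsest, with 18 regions at 1.89 per Mb, and the pericentromeric stretch held 30 regions at 8.66 per Mb. Regions at the tip also lay close together, which a higher density brings about in part. In 16p13.3, 48.5% of the regions had another within 10 kb, compared with 18.6% in duplicated 16p, 25.4% in 16q and none of the 18 in the middle stretch. The share did not simply track density, since 16q was above duplicated 16p although it was sparser. The share expected from density was not computed.

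The order held in each replicate, although which of its peaks were counted depended on the other replicates too. Peaks inside recurrent regions reached 19, 17.6, 18.0 and 11.6 per Mb in 16p13.3 for replicates 1 to 4. They reached 4.13, 3.75, 3.56 and 2.88 per Mb in duplicated 16p and 2.83, 2.33, 2.56 and 1.60 per Mb in 16q. The 3 ranges of 16p13.3, duplicated 16p and 16q did not overlap, and replicate 4 was lowest in each of them. The ratio of 16p13.3 to 16q was 7.13 ± 0.357 (SD, n = 4), at 6.70, 7.55, 7.03 and 7.25. The ratio of duplicated 16p to 16q was 1.56 ± 0.181 (SD, n = 4), at 1.46, 1.61, 1.39 and 1.797. Both were above 1 in 4 of 4 replicates, with an exact two-sided sign-flip permutation p of 0.125, which is the smallest that 4 replicates can give, so that no comparison here could pass 0.05. In all, 19 such comparisons were made, and the Benjamini-Hochberg adjusted value was 0.264 for every one with a permutation p of 0.125 and higher for the rest. The ratio of 16p13.3 to duplicated 16p was 4.60 ± 0.421 (SD, n = 4).

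**Figure D1:**
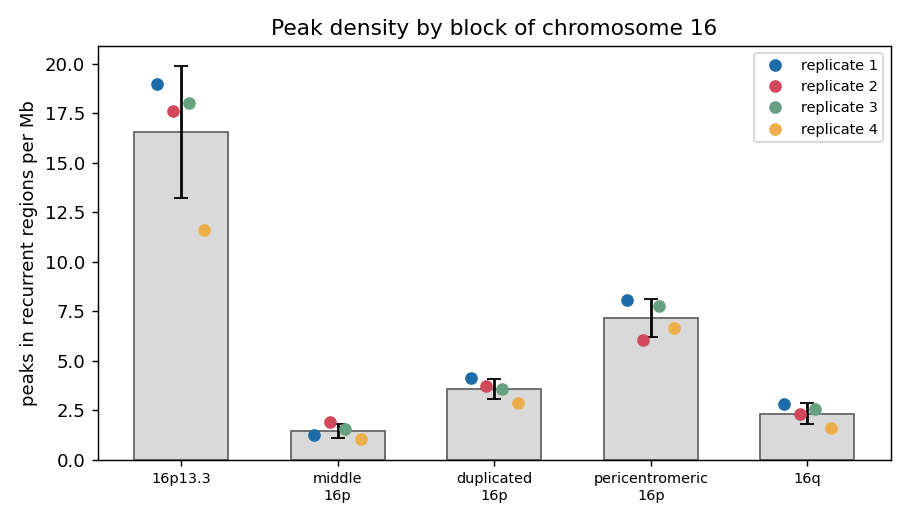
Peaks inside recurrent regions per Mb (vertical axis) for the 5 blocks of chromosome 16. Grey bars are means over the 4 replicates, error bars are SD and points are single replicates. All 4 points of 16p13.3, from 11.6 to 19 per Mb, sit above every point of the other blocks.

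The ratio of duplicated 16p to 16q depended on where the block was cut. With both borders moved inward by 1 Mb it was 1.00 (exact two-sided permutation p = 1.0), and with both moved outward by 1 Mb it was 1.81. The block was uneven. Its last 2.5 Mb, from 28 to 30.5 Mb, held 33 regions at 13.2 per Mb, and its other 13.5 Mb held 37 regions at 2.74 per Mb. The dense stretch also ran past the border, since the next 1 Mb held 18 regions, 12 of them in all 4 replicates, and the 2.47 Mb after that held 12 regions at 4.87 per Mb.

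Density was uneven on a scale of 1 Mb throughout. Of 79 bins of 1 Mb, 20 held no recurrent region, and 15 of these were among the 45 bins of 16q. The 5 fullest bins held 120 regions, or 33.4%. The bin from 2 to 3 Mb held 36 regions, the bin from 30 to 31 Mb held 25, and the bin from 0 to 1 Mb held 20. On 16q, the bin from 67 to 68 Mb held 21 regions, next to 20.6 per Mb in 16p13.3, although only 6 of the 21 were in all 4 replicates, beside 12 of the 20 in the first Mb of the chromosome. The longest stretch without a recurrent region apart from the centromere was 7.89 Mb long, from 58664116 to 66550572 on 16q, and held 1 peak of 1 replicate. On the short arm it was 3.62 Mb long, from 5148729 to 8768260, just past the border of the 16p13.3 block. Thus 16q was a mixture of empty and dense stretches, and its mean density describes few of its bins.

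Replicate support differed between the blocks. The share of recurrent regions with a peak in all 4 replicates was 44.7% in 16p13.3 (46 of 103, exact binomial 95% interval 34.9 to 54.8%) and 44.3% in duplicated 16p (31 of 70, 32.4 to 56.7%). In 16q it was 28.3% (39 of 138, 20.9 to 36.5%). The interval of 16q lay below the 41.5% of the genome, and the other intervals contained it. The intervals cover counting error only, and neighbouring regions are not independent. In the middle stretch 9 of 18 regions were in all 4 replicates (interval 26.0 to 74.0%), and the pericentromeric stretch had 16 of 30 (53.3%, 34.3 to 71.7%).

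**Figure D2:**
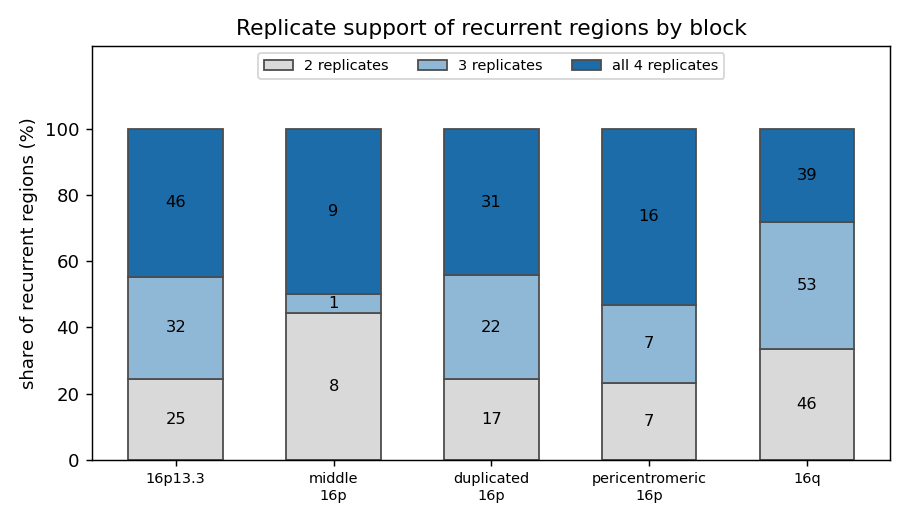
Share of the recurrent regions of each block (vertical axis, in percent) with a peak in 2, 3 or all 4 replicates. Numbers inside the bars are regions. The dark part, all 4 replicates, makes up 28.3% in 16q and 44.3% or more in the other blocks.

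Replicate by replicate, a peak was present in 92.2%, 85.4%, 86.4% and 56.3% of the 16p13.3 regions. In duplicated 16p the shares were 90.0%, 85.7%, 80.0% and 64.3%, and in 16q they were 89.1%, 73.9%, 81.2% and 50.7%. The share in 16p13.3 was above that in 16q in 4 of 4 replicates, by 6.37 ± 3.61 percentage points (SD, n = 4, exact two-sided permutation p = 0.125). Duplicated 16p was above 16q in 3 of 4 replicates, by 6.27 ± 7.49 percentage points (SD, n = 4, exact permutation p = 0.375), a difference smaller than its spread. Taken singly, the gap of 16p13.3 to 16q was largest in replicate 2, and that of duplicated 16p in replicate 4. The share with a peak in every replicate differed least between blocks when replicate 4 was left out and regions were chosen anew. The share in all of the 3 others was then 69.0% in 16p13.3, 63.6% in duplicated 16p and 63.1% in 16q. Without replicates 1, 2 and 3 in turn, it was 56.0%, 52.7% and 60.5% in 16p13.3. In 16q it was then 39.0%, 39.5% and 38.9%, and in duplicated 16p 56.9%, 58.3% and 55.6%.

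Several bins of 16q held recurrent regions but none of all 4 replicates. Among them were the bins from 58 to 59 Mb with 5 regions, 66 to 67 Mb with 4 and 69 to 70 Mb with 6. The fullest such bin, from 75 to 76 Mb, held 9 recurrent regions. Replicate 1 had a peak in all 9 of these, replicate 2 in 1, and replicates 3 and 4 in 5 each. In 16p13.3, the bin from 3 to 4 Mb held 18 regions, of which 4 were in all 4 replicates, with 17, 14, 14 and 5 peaks in replicates 1 to 4.

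Fold enrichment differed less between the blocks than density did. The median over the peaks in recurrent regions of 16p13.3 was 9.64, 7.79, 8.3 and 8.05 for replicates 1 to 4. In duplicated 16p it was 9.28, 8.36, 10.01 and 6.82, and in 16q it was 8.04, 7.57, 7.94 and 6.81. The ranges overlapped. Within each replicate the median was higher in 16p13.3 than in 16q, by 0.859 ± 0.673 (SD, n = 4, exact two-sided permutation p = 0.125), and higher in duplicated 16p than in 16q, by 1.03 ± 0.861 (SD, n = 4, exact permutation p = 0.125). In replicate 4 the second difference was only 0.0135, and in 9 of 11 alternative settings with 4 replicates it was positive in fewer than 4 of them. For 16p13.3 this was so in 3 of 11 settings. The blocks also differ in replicate support, which goes with fold enrichment. Among the regions of all 4 replicates, the difference from 16q was 0.136 ± 0.794 for 16p13.3 (SD, n = 4, exact permutation p = 0.875) and 0.702 ± 0.847 for duplicated 16p (SD, n = 4, exact permutation p = 0.25), with 3 of 4 replicates positive in both. These differences were within the spread between replicates. The median of the mean fold enrichment over these regions was 10.5 in 16p13.3, 10.7 in duplicated 16p and 10.9 in 16q, next to 9.62 over the genome.

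**Figure D3:**
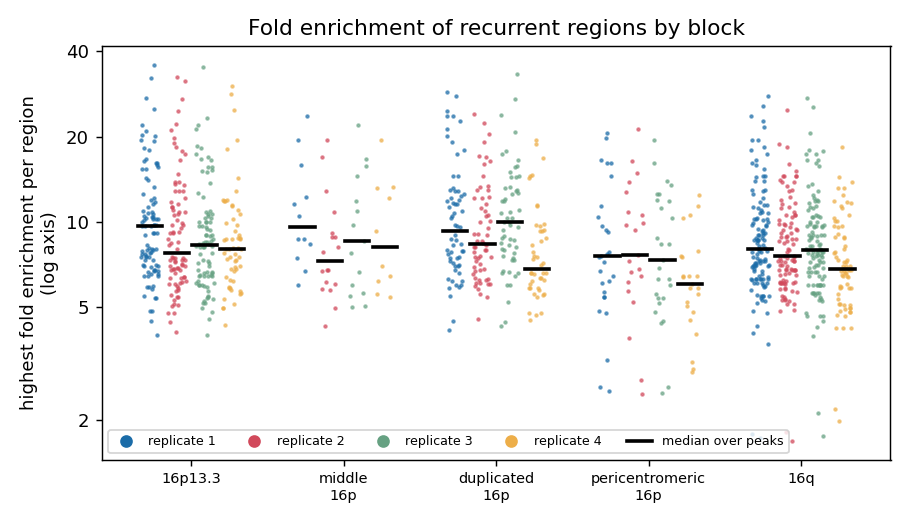
Highest fold enrichment of each recurrent region in each replicate that had a peak there (vertical log axis), by block and replicate. Black lines are the medians over peaks given in the text, which lie between 6.04 and 10.01. The lowest points lie in the pericentromeric stretch and in 16q, beside the centromere.

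The lowest values were found near the centromere. Of the 141 regions of all 4 replicates, 4 had a mean fold enrichment under 4, 2 on each side of the peak-free stretch. The region at 46391156-46391673, the first on 16q, had 1.73, 1.69, 1.76 and 2.18 in replicates 1 to 4. Next to it, the region at 46406669-46407072 had 1.79, 1.82, 2.12 and 1.98. On the 16p side, the region at 33866232-33866692 had 2.53, 2.77, 2.49 and 2.96, and the one at 33887628-33887972 had 2.61, 2.47, 2.62 and 3.21. Their values repeated closely between replicates and were small, whereas no peak in the other 137 regions of all 4 replicates was under 4.04. Among regions of fewer replicates, one on 16p at 33293770-33294213 had 3.25, 4.80 and 3.04 in replicates 1, 3 and 4, which reaches into the range of the 4 regions. Nearer still to the peak-free stretch on 16p, the region at 33961201-33961657 had 5.65 and 6.30 in replicates 1 and 3, and the one at 33965564-33966070 had 3.89 and 4.41 in replicates 2 and 3. The peaks of the 4 low regions were nevertheless significant in the caller's statistics, with a −log10 q-value of 4.79 to 18.8 and a median of 11.7, beside a median of 14.7 in the other regions of all 4 replicates. Neither repetition nor significance tells whether these 4 regions hold folded G4s, which was not tested. They are included in the shares in all 4 replicates given above.

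The 10 strongest regions lay mainly in 16p13.3 and duplicated 16p. Among regions of all 4 replicates, ranked by mean fold enrichment, 5 of the first 10 were in 16p13.3, 4 in duplicated 16p and 1 in 16q, near its end. Of the first 50, 15 were in 16p13.3, 14 in duplicated 16p, 13 in 16q, 5 in the pericentromeric stretch and 3 in the middle stretch. Of all 141 regions ranked, 46 were in 16p13.3, 31 in duplicated 16p and 39 in 16q. The pericentromeric and middle stretches had 16 and 9. The counts among the first 50 thus largely follow the number of such regions in each block.

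The strongest region of all lay at 2955265-2956159 in 16p13.3. It had 35.8, 31.4, 35.1 and 28.3 in replicates 1 to 4 (32.6 ± 3.50, SD, n = 4), with summits within 120 bp of each other. Only 0.501 kb away lay a recurrent region of 3 replicates with values of 6.46, 6.85 and 5.89 in replicates 1, 2 and 4. A strong and a weak region were thus direct neighbours.

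The second, at 402575-403362 in 16p13.3, had 32.3, 32.5, 21.2 and 24.8 (27.7 ± 5.60, SD, n = 4). Rank 3 was 1392888-1393481, with 27.4, 24.6, 23.3 and 30.2, the only one of the 10 in which replicate 4 was highest. The order of the first 3 was not the same in every replicate, since the second was above the first in replicate 2 and rank 3 was above it in replicate 4. Ranks 7 and 8, at 2185795-2186476 and 1993052-1993635, were also in 16p13.3, with means of 21.5 ± 2.54 and 20.8 ± 4.26 (SD, n = 4).

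Within duplicated 16p, the region at 28935852-28936911 was the strongest with 28.6, 20.4, 33.3 and 18.8 (25.3 ± 6.84, SD, n = 4). The region at 22201577-22202941 was the widest on the chromosome at 1365 bp and had 23.6, 22.4, 27.1 and 14.6. Rank 10, at 27561079-27561583, had the widest spread of the 10, with 27.7, 16.4, 23.9 and 11.5 (19.9 ± 7.30, SD, n = 4). In these 3 regions replicates 1 and 3 were above replicates 2 and 4.

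On 16q the strongest region lay at 89940147-89940829, with 23.7, 24.8, 27.4 and 18.3 (23.6 ± 3.83, SD, n = 4). The next on this arm were 68271281-68271963, with 27.9, 11.6, 20.5 and 13.8, and 81129800-81130330, with 19.5, 15.98, 25.4 and 11.7. In the rest of the short arm the highest were 11836525-11837073, with a mean of 18.96 ± 4.74, 5147605-5148728, with 18.7 ± 1.37, and 30669183-30670283, with 17.3 ± 6.33 (SD, n = 4 each). The region at 5147605 lay just before the empty 3.62 Mb stretch.

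**Figure D4:**
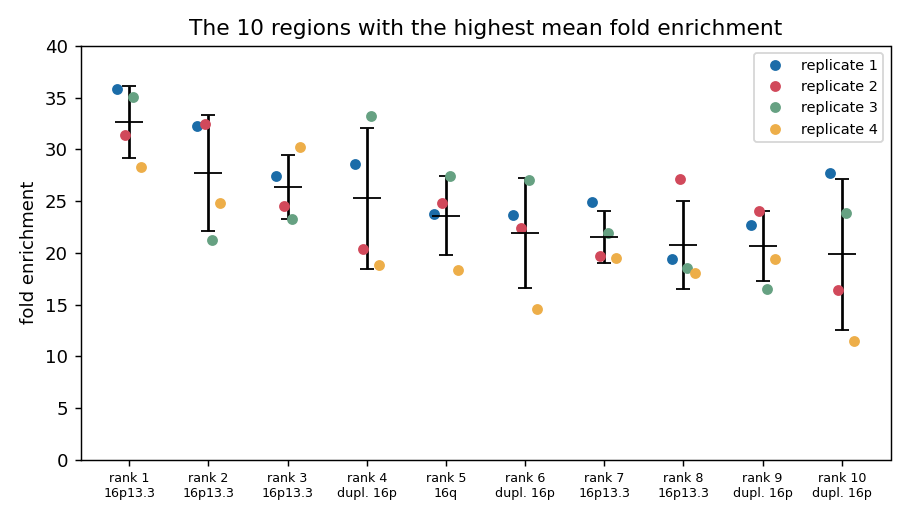
Fold enrichment (vertical axis) of the 10 regions with the highest mean over the 4 replicates, ordered by rank, with their block. Points are replicates, dashes are means and error bars are SD. The first region lies at 28.3 to 35.8, and the ranges of neighbouring ranks overlap throughout.

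The study's table of gene windows, each 4000 bp wide with a gene name and a strand, was made from these same samples, so a peak in a window is no independent evidence. The paper cites this table for the G4s it calls prostate cancer-specific, kept after a comparison with known G4 profiles of other cell lines. The windows are therefore a filtered set, and their counts do not tell how many recurrent regions lie near genes. It has 56 windows on chromosome 16 with 54 gene names. Of these windows, 34 held a recurrent region, and the other 22 touched only regions of 1 replicate. The 34 windows shared 15 different regions, or 4.18% of the 359, because windows of overlapping and neighbouring genes hold the same peak. The windows lay mainly away from the dense tip. In duplicated 16p, 20 of 23 windows held a recurrent region, and in the pericentromeric stretch 12 of 17 did. In 16p13.3 it was 1 of 4 and in 16q 1 of 12, and the middle stretch had no window. The 1 gene in 16p13.3 was ZG16B, which codes for a secreted lectin-like protein. Its region at 2879795-2880362 had 6.44, 7.45 and 5.91 in replicates 1 to 3 and no peak in replicate 4.

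Many of the genes in windows of duplicated 16p and the pericentromeric stretch are copies of each other. Reads from identical copies cannot be told apart by sequence, and how such reads were placed is not given in the sources used here, so the values of copies may not be separate measurements.

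Among the copies in windows, those of MIR3180 were the strongest. The 3 MIR3180 loci named in the windows lay in recurrent regions of all 4 replicates, and loci outside the windows were not looked for. The region of MIR3180-1 at 15004746-15005485 was rank 9 of the chromosome, with 22.7, 24.1, 16.6 and 19.4 (20.7 ± 3.37, SD, n = 4). That of MIR3180-2 at 16403445-16404143 had 24.7, 17.1, 20.7 and 16.7 (19.8 ± 3.70), and that of MIR3180-3 at 18495754-18496507 had 23.7, 13.4, 15.8 and 9.40 (15.6 ± 6.03). The 3 ranges overlapped. Compared within replicates, after their values were seen, MIR3180-2 was above MIR3180-3 in 4 of 4, by 4.24 ± 2.65 (SD, n = 4, exact two-sided permutation p = 0.125, the smallest possible, and 0.375 after Benjamini-Hochberg adjustment over the 3 pairs). MIR3180-1 was above MIR3180-3 in 3 of 4, by 5.09 ± 6.08, and above MIR3180-2 in 2 of 4, by 0.851 ± 4.95 (SD, n = 4, exact permutation p = 0.375 and 0.75), differences smaller than their spread. The study's table has 2 kinds of window here, on opposite strands: MIR3180-1 to MIR3180-3 and, at each locus, hsa-mir-3180-3, whose strand is that of the RefSeq hairpin. Relative to the centre of the latter, the summits lay at −29 to 118 bp in the first region, −8 to 38 bp in the second and 37 to 130 bp in the third, counted in the direction of the hairpin. Whether the summits fall in the hairpin printed above was not tested, as the builds differ, and 3 of the 4 summits of the third region lay farther from the centre than its 94 bases. The same 3 regions were shared with windows of RP11-958N24.1, PKD1P1 and PKD1P5, of which the last 2 are pseudogenes of the polycystin gene PKD1.

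A second pair held a cluster of small genes. On one copy lie BOLA2, which takes part in cellular iron handling, SLX1B, a subunit of a nuclease that cuts branched DNA, and SULT1A4, a sulfotransferase that acts on catecholamines. On the other lie BOLA2B, SLX1A and SULT1A3. The promoters of SLX1B and SLX1A, of SULT1A4 and SULT1A3, and of the read-through genes SLX1B-SULT1A4 and SLX1A-SULT1A3 were identical over 300 of 300 bases in RefSeq. Those of BOLA2 and BOLA2B shared an identical run of 273 bases. The first copy's region at 29465493-29466549 had 11.6, 10.02, 10.3 and 5.56 in replicates 1 to 4 (9.37 ± 2.64, SD, n = 4). The second copy's region at 30204907-30205958 had 7.19, 10.1 and 8.28 in replicates 1 to 3 and no peak in replicate 4. In the 3 replicates that had both, the first copy was higher in replicates 1 and 3 and the second in replicate 2.

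Each of these regions held 2 separate summit positions. On the first copy the highest summit of replicates 1, 3 and 4 lay 559, 535 and 496 bp after the SLX1B window centre, and that of replicate 2 lay 56 bp before it. On the second copy replicate 1 lay 546 bp after the SLX1A window centre, and replicates 2 and 3 lay 124 and 151 bp before it. Replicates 1 and 2 thus kept their position on both copies, and replicate 3 differed between them. The farther position on the first copy fell 31, 55 and 94 bp before the centre of the SLX1B-SULT1A4 window, on the side of the upstream sequence printed above with its 13 G runs. On the second copy, the farther position, in replicate 1, fell 541 bp after the centre of the SLX1A-SULT1A3 window, although that promoter is identical. The 2 windows are thus centred differently on the copied sequence, and whether the summits fall in the printed sequence was not tested. The start sites of the window table and of RefSeq were not compared, as their builds differ. Among the 16 window genes with a RefSeq promoter, the strict motif was found in the promoters of SULT1A4, SULT1A3 and GNAO1. That was 2 of the 12 genes whose window held a recurrent region, beside 25.5% on the chromosome. It was 1 of the 4 whose window touched only regions of 1 replicate. The promoters of SULT1A4 and SULT1A3 are identical, so those 2 are the same sequence. A window can also hold a region that does not cover its centre, as for SULT1A4, so these promoters need not lie in the region.

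Another set was TP53TG3, a gene named for its induction by p53. The promoters of TP53TG3D, TP53TG3 and TP53TG3C were identical over 300 bases. Their regions had modest values. The region of TP53TG3D at 32265154-32265646 had 6.45, 6.14 and 5.39 in replicates 1 to 3. That of TP53TG3 at 32686463-32687038 had 4.84, 5.39 and 6.04 in replicates 1, 3 and 4, and that of TP53TG3C at 33205956-33206590 had 6.19, 7.26, 6.88 and 6.42 in all 4. From the centre of the gene's own window, the summits lay 1310 to 1387 bp away for TP53TG3D, 1205 to 1332 bp for TP53TG3 and 2045 to 2198 bp for TP53TG3C. Each region also lay in the window of a neighbouring transcript, 316 to 393 bp from the centre for RP11-56L13.7, 363 to 490 bp for RP11-586K12.8 and 321 to 474 bp for RP11-1437A8.3. The offsets on the 3 copies were thus alike from the neighbouring transcripts, and from the genes themselves the third copy's summits were farther away.

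**Figure D5:**
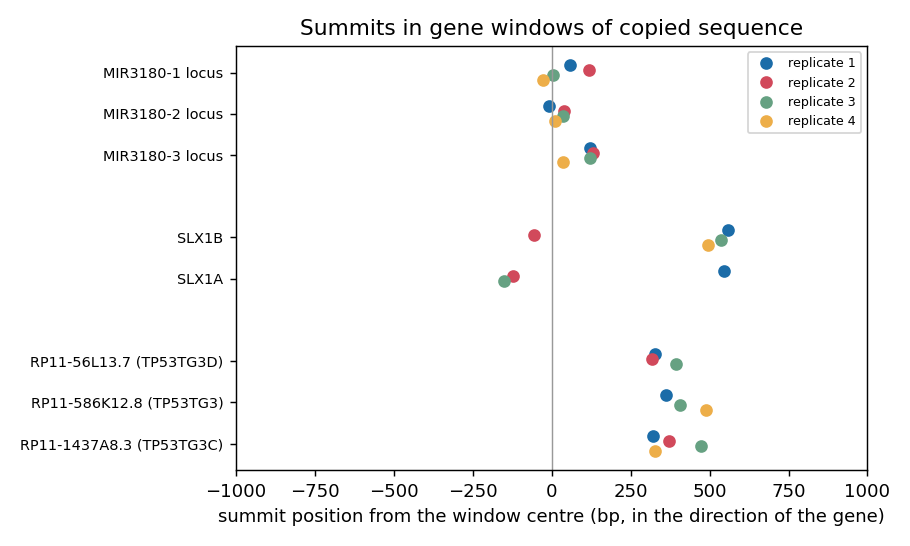
Position of the highest summit of each replicate relative to the centre of the gene window (horizontal axis, bp in the direction of the gene) for 3 sets of copied genes. Points are replicates, and the grey line is the window centre. Summits at the 3 MIR3180 loci lie from −29 to 130 bp, those of SLX1B and SLX1A fall into 2 positions, and those beside TP53TG3 genes lie from 316 to 490 bp.

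The remaining genes in windows with a recurrent region included 2 with a peak in all 4 replicates. The window named SNORA42, after a small nucleolar RNA, held the region at 30428895-30429577, with 7.91, 6.24, 7.49 and 6.56. The summits of this region lay 1642 to 1762 bp from the window centre. Whether the entry is a working gene was not tested. RP11-2C24.4 had 7.69, 10.6, 11.2 and 6.39 at 30751699-30752075. HERC2P5, a pseudogene of the ubiquitin ligase gene HERC2, shared the region at 32752293-32752720 with RP11-586K12.4 and RP11-586K12.5, which had 6.08 and 7.32 in replicates 1 and 3 only. RP11-388M20.2 had 6.69 and 8.38 in the same 2 replicates, and the region at 32881826-32882429, in the window of another RP11 transcript, had 5.44, 5.17 and 4.52 in replicates 1, 3 and 4. RP11-231C14.3 and RP11-345J4.5 shared the region of BOLA2. On 16q only snoU13, a small nucleolar RNA, had a region of 2 replicates, with 7.005 and 6.12 in replicates 1 and 2. The other 11 windows on 16q, which include those of GNAO1, a G protein subunit of neurons, and NLRC5, the activator of MHC class I genes, touched regions of 1 replicate.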

How the data were processed

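BG4 ChIP-seq was analysed for 4 C4-2 replicates. Per the labels' processing notes, the submitters' tools were bcl2fastq 1.8.4, Bowtie2 2.2.5, SAMtools 1.11 and MACS2 2.1.1 with build hg19. The methods name hg38, but the last peak on chromosome 1 ends at 249201060, beyond that chromosome in hg38, so positions were taken as GRCh37. Each replicate has 1 list of peaks. The authors' deposited fold enrichment is a ratio over the local background. The deposited p-value and q-value are given as −log10. The deposited score was not used. Options, treatment of duplicate reads and use of the input are not given in the sources used here. The lists give no counts, so depth is unknown.

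Peaks overlapping by at least 1 bp were merged, and a region was assigned to a block by its midpoint. Densities and fold enrichment were compared within replicates with exact two-sided sign-flip permutation tests, on log2 ratios or on differences. Intervals are exact binomial at 95%. The reference here was GRCh38, so genes and bases were not read by peak position, and RefSeq promoters and hairpins were joined by symbol. The merging was tested on 500 simulated sites.

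The regions named are those of all 4 replicates with the 10 highest means of fold enrichment and the 3 highest of each of 16p13.3, duplicated 16p, 16q and the rest of 16p. The genes named are those whose window holds a recurrent region. Promoter sequence was taken for protein-coding genes so named in regions of all 4 replicates, outside untranslated regions. Of these, SLX1B-SULT1A4 is shown, and 2 shorter BOLA2 pieces, of 48 and 140 bases, are not. The comparison between MIR3180 copies, the low regions beside the centromere, single bins, the hairpins and the motif-bearing or 1-replicate genes GNAO1 and NLRC5 were chosen after their values were seen. Members and lists were chosen with earlier results of these data known. Alternatives were other numbers of replicates, overlaps, thresholds, borders and measures, and each replicate left out. Scripts ran in Python 3.11.15 with scipy 1.17.1, pandas 2.3.3, numpy 2.4.6 and matplotlib 3.10.9.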

Additional observations from a re-analysis of the deposited data

Results flagged for a closer look

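In 4 of 55 measures examined, 1 replicate stood far from the other 3, by a gap that took up more of the range than the 95% limit for 4 values allows. Chance flags about 1 in 20. For the region at 1993052 the gap was 0.857 of the range, with replicate 2 at 27.1 and the others at 18.1 to 19.4. For the region at 5147605 it was 0.977, with replicate 3 at 16.7 and the others at 19.4. For the region at 30669183 it was 0.865, with replicate 4 at 7.89 and the others at 19.5 to 21.3. For the difference in median fold enrichment between 16p13.3 and 16q among regions of all 4 replicates it was 0.851, with replicate 3 at −1.04 and the others at 0.367 to 0.614.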

How the results depend on the processing

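Over 8 results and 18 alternatives, 100 values were recomputed, and in none did the mean density ratio turn below 1 or the mean fold enrichment difference turn negative. Single replicates did turn: with all 4 replicates in use, the fold enrichment difference was positive in fewer than 4 of them in 9 of 11 settings for duplicated 16p and in 3 of 11 for 16p13.3, and the density ratio of duplicated 16p was above 1 in fewer than 4 in 1 of 10 settings. The 359 recurrent regions became 256 with at least 3 replicates, 141 with all 4, 572 with at least 1 and 177 with the 3000 strongest peaks of each replicate. The shares in all 4 replicates of 16p13.3, duplicated 16p and 16q became 59.0%, 58.5% and 42.4% when members had at least 3 replicates and 28.7%, 29.0% and 17.3% with at least 1, changes that follow from the denominator. With 1 replicate left out, when the share is that in all of the other 3, they ranged from 52.7 to 69.0%, from 55.6 to 63.6% and from 38.9 to 63.1%, and the highest value of each came without replicate 4. Leaving out 1 replicate gave 288 to 333 regions, density ratios to 16q of 7.09 to 7.60 for 16p13.3 and 1.51 to 1.69 for duplicated 16p, and fold enrichment differences of 0.531 to 1.07 and 0.508 to 1.49, where 0.25 is the smallest exact permutation p that 3 replicates can give. The ratio of duplicated 16p to 16q was 1.00 with borders 1 Mb further in and 2.23 over regions of all 4 replicates, where that of 16p13.3 was 10.4. Without the 4 low regions beside the centromere, an alternative chosen after seeing the data, the share of 16q in all 4 replicates was 27.2% and both ratios kept their direction. Blocks were compared within replicates throughout. No paired analysis between groups was possible because there is 1 group. Peak lists without counts hide how many missing peaks are due to depth, most of all in replicate 4.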
